A study of Mus musculus with 2 samples.

Results

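The genes described here encode the 7 subunits of the NMDA receptor, a glutamate-gated ion channel: Grin1, Grin2a, Grin2b, Grin2c, Grin2d, Grin3a and Grin3b. They were chosen by symbol from the 45578 genes of the deposited table, and all 7 were found there. Ribosomes were profiled in whole brain from control mice of postnatal day 5 (P5), in 2 samples. The animals had 1 disrupted copy of mouse Smn and a human SMN2 transgene (genotype Smn+/-; SMN2tg/0) on the FVB background, so the carriers of both alleles are themselves the controls. Both samples formed 1 group of biological replicates, with no second genotype, age or treatment to compare against. Whole brains were lysed, so the values average over all brain regions and cell types.

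NMDA receptors assemble as tetramers in which GluN1, the product of Grin1, is the obligatory glycine-binding subunit. The partners are the glutamate-binding GluN2 subunits (Grin2a to Grin2d) or the glycine-binding GluN3 subunits (Grin3a and Grin3b). The partner sets how long the channel stays open, how strongly magnesium blocks it and how much calcium it passes. In the rodent brain GluN2B and GluN2D are made before birth, GluN2A appears as synapses mature, GluN2C comes late and mainly in cerebellar granule cells, and GluN3A peaks in the early postnatal weeks.

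In ribosome profiling, each count is a fragment of mRNA that a ribosome shielded from nuclease, called a footprint. Replicate 1 had 1866831 footprints in all, and replicate 2 had 5261878. A gene with a count of 0 could still lie at up to 1.61 CPM, or counts per 1000000 of the library, in the first and 0.570 CPM in the second, with a floor of 3 counts. Markers of brain cells were present: neuronal, astrocyte and oligodendrocyte lineage lists had footprints on every gene in both libraries. The 6 skeletal muscle markers summed to 78.2 and 57.4 CPM, nearly all of it from the actin gene Acta1, with 140 and 264 footprints (75.0 and 50.2 CPM). Myog, a muscle regulator, had none, and the other 4, among them muscle creatine kinase (Ckm) and Myh3, had 1 to 3 footprints in replicate 1 and 4 to 20 in replicate 2. The part of these muscle transcripts in the results was not tested. The libraries stood apart in regional markers. Hoxb5, a gene of the caudal hindbrain and spinal cord, had 0 footprints in replicate 1 and 88 in replicate 2, and Hoxb4 had 0 and 17.

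Grin1 had the highest level of the 7 genes. With all transcripts counted, Grin2b and Grin3a followed at about the same level, then Grin2d and Grin2a. Grin2c and Grin3b were at the edge of detection. Levels are footprints per kilobase of the longest annotated coding sequence, scaled to 1000000 footprints of the library, and intervals are exact Poisson 95% intervals. They cover counting error only, since PCR copies are not independent molecules. Because whole brains were used, fewer cells of a type, less mRNA per cell and fewer ribosomes per mRNA cannot be told apart.

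Grin1 (ENSMUSG00000026959, chromosome 2, coding length 2880 nucleotides) had 849 footprints in replicate 1 and 2899 in replicate 2. The level per coding kilobase was 158 (147 to 169) and 191 (184 to 198), with a mean of 175 ± 23.6 (SD, n = 2). This placed it at percentile 91.6 of the 13349 genes that had a coding sequence and averaged 10 or more counts. The gene on the opposite strand, Grin1os, had 0 footprints in both libraries.

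Grin2b (ENSMUSG00000030209, chromosome 6, coding length 4449), the early GluN2 subunit, had 472 and 1570 footprints. Its level per coding kilobase was 56.8 (51.8 to 62.2) in replicate 1 and 67.1 (63.8 to 70.5) in replicate 2, a mean of 61.9 ± 7.24 (SD, n = 2) and percentile 75.4. Grin2d (ENSMUSG00000002771, chromosome 7, coding length 3972), the other early GluN2 subunit, had 174 and 333 footprints. Its level was 23.5 (20.1 to 27.2) and 15.9 (14.3 to 17.7), a mean of 19.7 ± 5.33 and percentile 45.3. Grin2b thus lay above Grin2d in both animals, with intervals that did not overlap.

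Grin2a (ENSMUSG00000059003, chromosome 16, coding length 4395), the subunit of mature synapses, counted 54 footprints in the first library and 201 in the second. Its level per coding kilobase was 6.58 (4.94 to 8.59) and 8.69 (7.53 to 9.98), a mean of 7.64 ± 1.49 (SD, n = 2) and percentile 21.8. Grin2c (ENSMUSG00000020734, chromosome 11, coding length 3720), the cerebellar subunit, had 5 and 18 footprints. At 0.720 (0.234 to 1.68) and 0.920 (0.545 to 1.45) per coding kilobase it was at percentile 0.532. Gabra6, a marker of mature cerebellar granule cells, was likewise scarce, with 0 footprints in replicate 1 and 7 in replicate 2.

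Grin3a (ENSMUSG00000039579, chromosome 4, coding length 3408), which lowers calcium entry through the receptors it joins, had 362 and 871 footprints. Its level per coding kilobase was 56.9 (51.2 to 63.1) in replicate 1 and 48.6 (45.4 to 51.9) in replicate 2, a mean of 52.7 ± 5.89 (SD, n = 2) and percentile 71.9. Grin3b (ENSMUSG00000035745, chromosome 10, coding length 3012), a subunit known mainly from motor neurons, had 2 footprints in replicate 1 and 1 in replicate 2. Both lay under the floor of 3 counts, so no fold between the GluN3 genes is given.

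**Figure D1:**
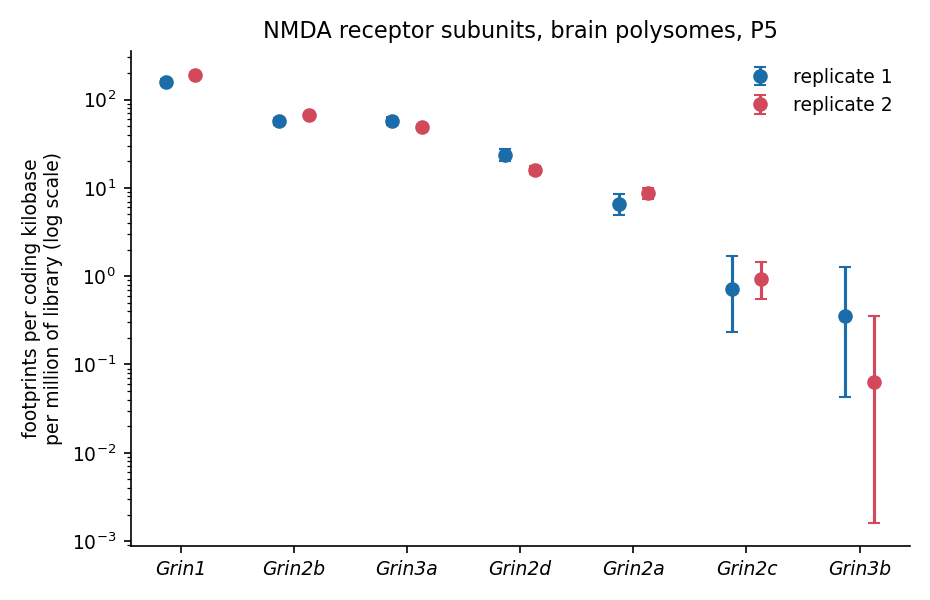
Level in footprints per coding kilobase, scaled to library size (log scale), for each subunit gene in replicate 1 (blue) and replicate 2 (red), with exact Poisson 95% intervals. Grin1 lies highest, Grin2b and Grin3a lie between 48.6 and 67.1, and the intervals widen for Grin2c and Grin3b, which rest on few footprints.

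At 4 of the 6 steps in the order of levels the counting intervals were separate in both libraries. Grin1 exceeded Grin2b by 2.78-fold in replicate 1 (95% interval 2.48 to 3.12) and 2.85-fold in replicate 2 (2.68 to 3.04), from exact binomial intervals of the paired counts. Grin3a exceeded Grin2d by 2.42-fold (2.02 to 2.92) and 3.05-fold (2.68 to 3.47), and Grin2a exceeded Grin2c by 9.14-fold (3.68 to 29.3) and 9.45-fold (5.83 to 16.3). Grin2b and Grin3a did not separate beyond their spread: their ratio was 0.999 (0.869 to 1.15) in replicate 1 and 1.38 (1.27 to 1.502) in replicate 2. Grin2c and Grin3b had overlapping intervals in replicate 1 and separate ones in replicate 2. Part of the order depended on which transcripts and lengths were used. With the highest transcript of each gene, Grin2b had a mean level of 49.3 and lay above Grin1 at 43.1, followed by Grin3a at 36.7 and Grin2d at 33.9. With full transcript lengths Grin1 stayed highest at 118, and Grin3a at 24.0 and Grin2d at 14.4 both lay above Grin2b at 11.5. With protein-coding transcripts alone the order was as given, but Grin2b and Grin3a were no longer at about the same level. Their means were then 81.6 ± 10.8 and 47.9 ± 4.48 (SD, n = 2).

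The ratio of Grin2b to Grin2a, a usual index of receptor maturity, was 8.63 per coding length in replicate 1 (95% interval 6.51 to 11.7) and 7.72 in replicate 2 (6.66 to 8.98). The mean was 8.18 ± 0.649 (SD, n = 2), and the intervals overlapped. Summed counts with no length gave 8.28 ± 0.657, since the coding sequences are nearly equal in length. Dividing by the full transcript lengths, which include a 3′ untranslated region of 18866 nucleotides in Grin2b-001 and 9929 in Grin2a-001, gave 5.03. Grin2b stayed above Grin2a in each of the 7 alternatives tried, which ranged from 5.03 to 10.8.

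The ratio of Grin2b to Grin2d was less alike in the animals. It was 2.42 in replicate 1 (2.03 to 2.90) and 4.21 in replicate 2 (3.74 to 4.75), and these intervals did not overlap. With full transcript lengths in place of coding lengths the mean ratio turned from 3.32 to 0.838. Grin2d in turn exceeded Grin2a by 3.57-fold (2.61 to 4.93) in replicate 1 and 1.83-fold (1.53 to 2.19) in replicate 2.

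As shares of the summed GluN2 level, Grin2b made up 64.9% in replicate 1 and 72.4% in replicate 2 (mean 68.6% ± 5.33, SD, n = 2). Grin2d made up 26.8% and 17.2%, Grin2a 7.51% and 9.39%, and Grin2c 0.822% and 0.993%. With the GluN3 genes added, Grin3a alone took 39.3% of the summed partner level in replicate 1 and 34.4% in replicate 2. Grin2b took 39.2% and 47.5%. These shares count all transcripts, and how the pair compared depended on the setting. With protein-coding transcripts alone the mean level was 47.9 for Grin3a and 81.6 for Grin2b. With full transcript lengths it was 24.0 and 11.5. The level of Grin1 was 1.09 times the summed level of its 6 partners in replicate 1 and 1.35 times in replicate 2 (mean 1.22 ± 0.187). That mean ratio was 1.26 with protein-coding transcripts alone, 2.24 with full transcript lengths and 0.881 with no length. With 1 transcript per gene, the highest, it was 0.341. The highest of the 14 Grin1 transcripts held 12.5% and 12.6% of that gene's counts, and how shared fragments were assigned is not given. Whether Grin1 exceeded its partners thus depended on the transcripts and lengths used.

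**Figure D2:**
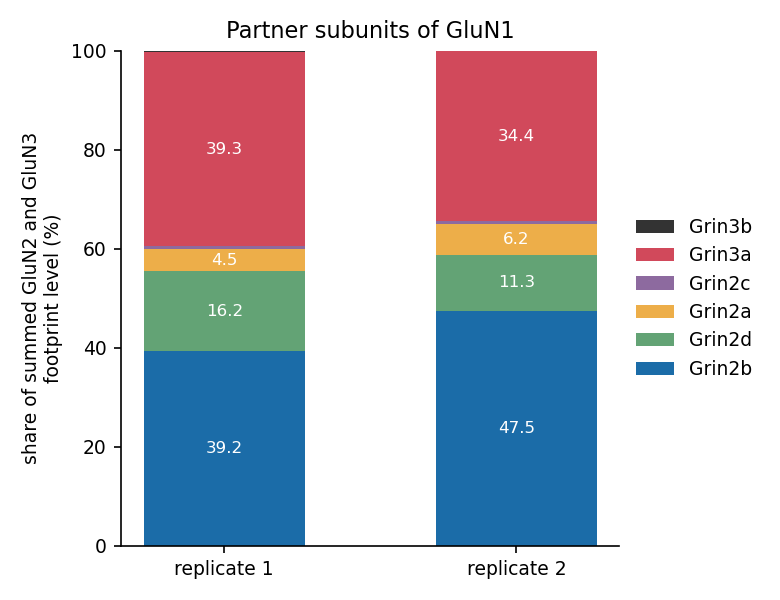
Share (%) of each GluN2 and GluN3 gene in their summed footprint level per coding kilobase, 1 stacked bar for each replicate. Grin2b (39.2% and 47.5%) and Grin3a (39.3% and 34.4%) fill most of both bars, and Grin2d is smaller in replicate 2.

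The NMDA genes were set beside the AMPA genes, which carry fast excitatory transmission, and the kainate genes. The summed level per coding kilobase was 303 in replicate 1 and 333 in replicate 2 for the 7 NMDA genes, and 278 and 374 for the 4 AMPA genes (Gria1 to Gria4). The ratio of these sums was 1.09 in replicate 1 and 0.888 in replicate 2, so the animals differed in which family was higher. This depended on the transcripts and lengths used: the mean ratio of 0.989 ± 0.143 was 1.37 ± 0.112 with protein-coding transcripts alone, 1.37 ± 0.179 with full transcript lengths and 1.25 ± 0.185 with no length (SD, n = 2). The 5 kainate receptor genes (Grik1 to Grik5) summed to 97.4 and 96.5, and the NMDA sum was 3.11 and 3.45 times as high. Grin1 and Gria2, the AMPA subunit that limits calcium entry, had the highest levels of the 16 genes. Gria2 reached 121 in replicate 1 and 177 in replicate 2.

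**Figure D3:**
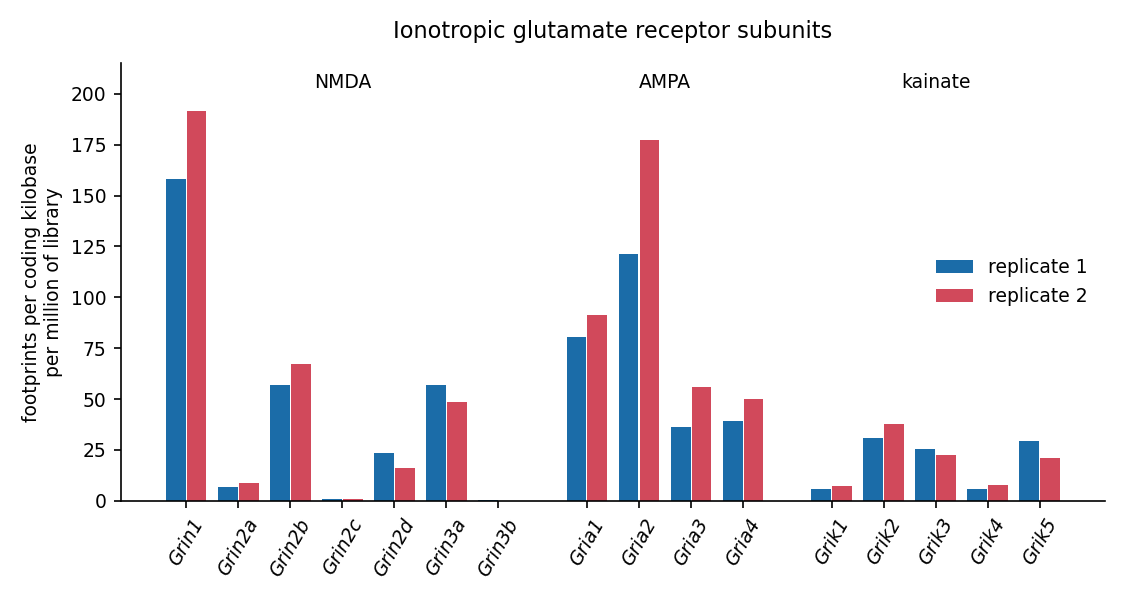
Level in footprints per coding kilobase, scaled to library size, for the NMDA, AMPA and kainate receptor genes in replicate 1 (blue bars) and replicate 2 (red bars). Grin1 (158 and 191) and Gria2 (121 and 177) are the tallest pairs, and no kainate gene passes 38.

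The genes whose level was most like that of a subunit in both libraries were found by the Euclidean distance of log2 levels over the 2 samples, among 13334 genes. For Grin1 they were Gnb4, H13 and 0610007P14Rik, at distances of 0.02, 0.04 and 0.04. For Grin2b, Lztr1 and Syn3 were among the nearest, both at 0.02. With 2 samples many genes lie this close: 18 genes were within 0.1 of Grin1 and 68 within 0.1 of Grin2b.

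Counts were deposited per transcript, and annotated protein-coding transcripts held 88.2% of the footprints of the 7 genes in replicate 1 and 89.6% in replicate 2. The share over the whole table was 76.3% and 74.8%. Grin1 is known for alternative exons at both ends of the protein, and the table listed 8 coding forms with coding lengths from 2658 to 2880 nucleotides. Their counts were nearly even, from 84 to 106 in replicate 1 (median 96) and from 292 to 366 in replicate 2 (median 323). The variance over the mean of these 8 counts was 0.675 and 1.52, where 1 is the value for counting noise.

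Grin2b footprints lay mostly on the transcripts with the full coding sequence, Grin2b-001 with 41.1% and 40.1% and Grin2b-201 with 36.7% and 37.1%. Grin2b-001 is longer by 16577 nucleotides, nearly all of it 3′ untranslated. Its counts were 194 and 629, against 173 and 582 for Grin2b-201. The excess of 21 and 47 footprints was close to the counting errors of 19.2 and 34.8. Grin2b-001 thus held 52.9% (95% interval 47.6 to 58.1) and 51.9% (49.1 to 54.8) of the pair's footprints, where its share of the pair's length was 76.3%.

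For Grin2a the same comparison was less precise. Grin2a-001 had 16 and 73 footprints, and Grin2a-201, annotated as coding sequence alone, had 11 and 49. Retained-intron transcripts took 29.6% of the Grin2a footprints in replicate 1 (18.0 to 43.6) and 18.4% in replicate 2 (13.3 to 24.5). These were mainly on Grin2a-003, with 13 and 29. Leaving out noncoding transcripts raised the mean Grin2b to Grin2a ratio to 10.8.

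Grin3a had 31.5% (26.7 to 36.6) and 31.1% (28.1 to 34.3) of its footprints on processed transcripts, which are annotated without a coding sequence. Nearly all of these were on Grin3a-003, with 107 and 262 footprints, about as many as either coding form had. Grin2d-001 held 86.2% and 92.2% of the Grin2d footprints. The short form Grin2d-002, with 648 nucleotides of which 191 are coding, had 24 and 26. Transcripts of a gene share exons, so these shares also depend on how shared fragments were assigned, which is not given in the sources used here.

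**Figure D4:**
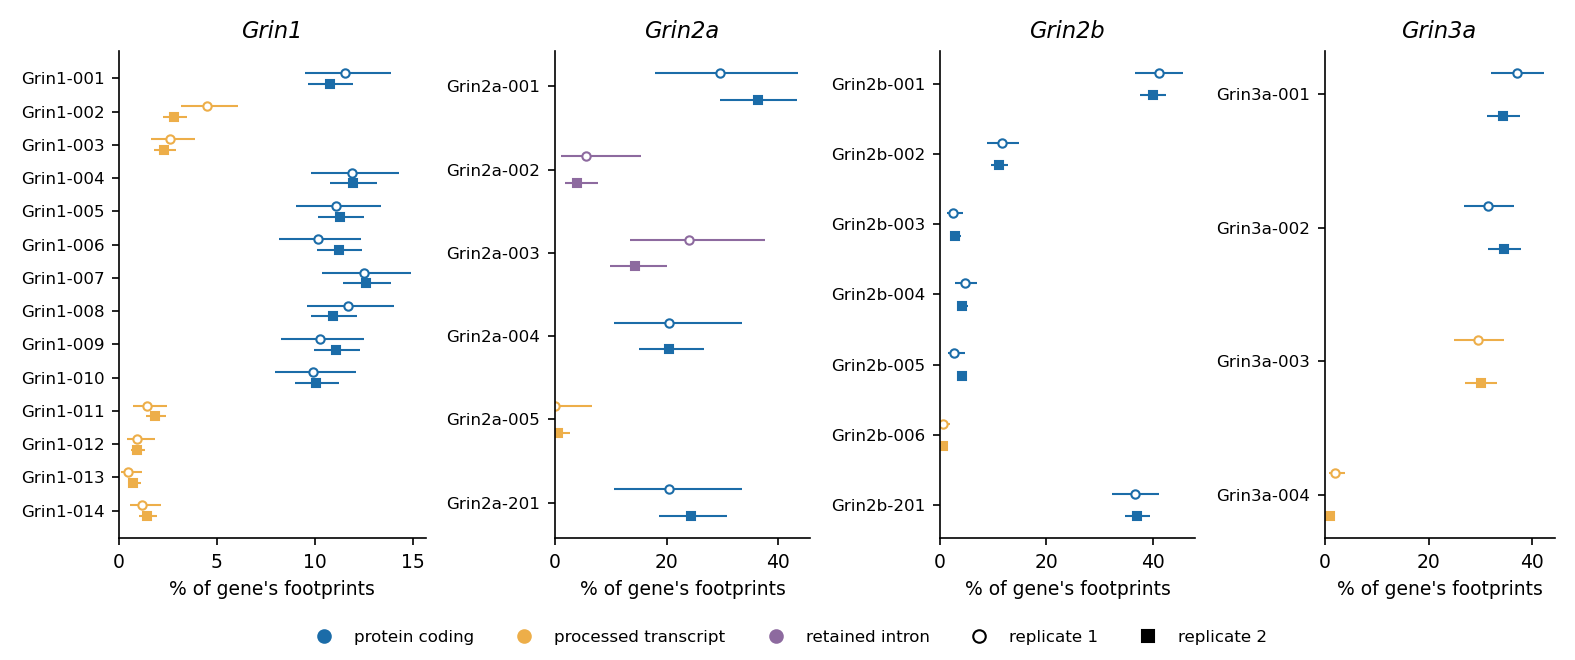
Share (%) of the footprints of Grin1, Grin2a, Grin2b and Grin3a on each annotated transcript, with exact binomial 95% intervals (open circles, replicate 1; filled squares, replicate 2; colour, biotype). The 8 coding forms of Grin1 lie between 9.89% and 12.6%, and Grin2b-001 and Grin2b-201 lie near each other despite their difference in length.

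Grin2d and Grin3a were lower in replicate 2 than in replicate 1, and Grin1 was slightly higher. The comparison used a two-sided exact binomial test per gene with TMM scaling (trimmed mean of M values), adjusted over the 16427 genes that averaged 10 or more counts. It compares 2 libraries of 1 group and covers counting noise alone. Of all genes tested, 17.4% were called (adjusted p under 0.05), 5.95% higher and 11.5% lower in replicate 2. This split changed with coding length. Up to 1500 nucleotides 5.13% were called higher and 15.8% lower. Above 2500 and up to 4500 nucleotides, where the subunit genes lie, it was 9.20% higher and 8.72% lower. Of the subunits, 6 were tested and 3 were called, 1 higher and 2 lower, and Grin3b did not reach the count minimum. Among genes with a mean count above 200 and up to 500, 32.1% were called, above 500 and up to 1000 it was 47.2%, and above 1000 and up to 3000, where Grin1 lay, 64.1%. With library totals, 60.7% of all called genes were higher in replicate 2 in place of 34.2%, since TMM moved the median log2 ratio from 0.13 to 0.01.

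The log2 ratio of replicate 2 over replicate 1 (prior 0.5 CPM) was -0.68 for Grin2d, where the exact binomial test gave an adjusted p of 1.85e-05. It was -0.35 for Grin3a, where that exact test gave 0.00154. Both were below 0 with library totals too, at -0.55 and -0.23, but Grin3a was then not called (exact binomial test, adjusted p = 0.0619). Counting Grin2d-001 alone, the highest transcript of that gene, gave -0.51 (exact binomial test, adjusted p = 0.00796), and the highest transcript of Grin3a gave -0.39 (adjusted p = 0.0943 in that exact test). Grin1 had a log2 ratio of 0.15 and passed narrowly (exact binomial test, adjusted p = 0.0443). With DESeq2 size factors the adjusted p of Grin1 was 0.0541 in that exact test. With library totals its log2 ratio was 0.28 (exact binomial test, adjusted p = 1.62e-05), and with the trend over footprint density removed it was 0.42 (exact binomial test, adjusted p = 2.49e-12). Grin2b, Grin2a and Grin2c had log2 ratios of 0.11, 0.27 and 0.19 and were not called, where the exact binomial test gave adjusted p of 0.3602, 0.5001 and 1. When edgeR's exact test was used with the dispersion of the same libraries, 0 subunits and 11 genes in all were called, with 0 and 719 at an unadjusted p under 0.05. That dispersion was estimated from the 2 libraries as 1 group. It therefore takes in the differences under test, which lowers the number of calls. As both libraries are replicates, it is also the spread between them that the binomial test leaves out, a coefficient of variation of 0.167. The binomial calls thus do not show that a subunit differed by more than that spread.

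**Figure D5:**
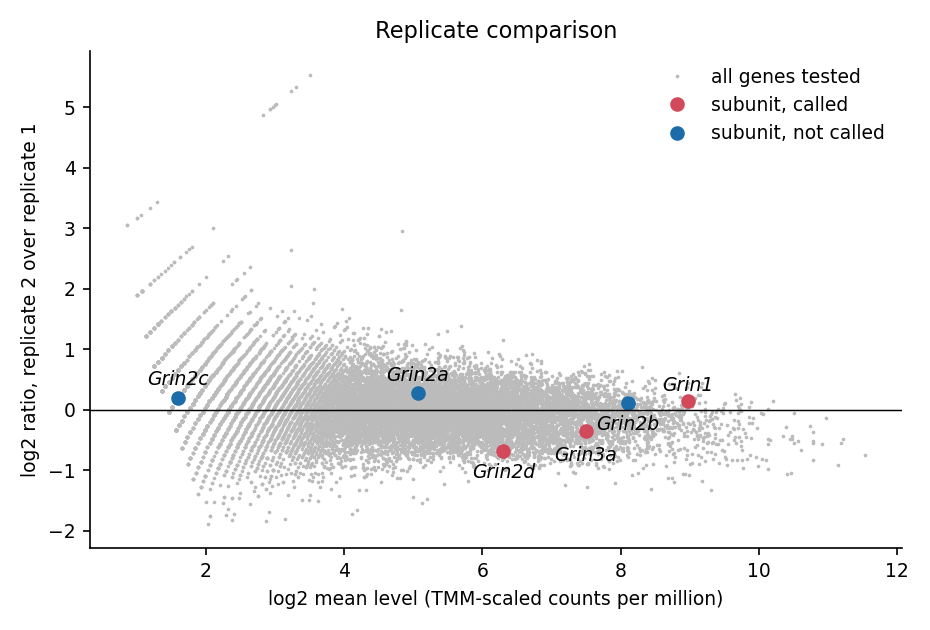
Log2 ratio of replicate 2 over replicate 1 against log2 mean level (TMM-scaled CPM) for the 16427 genes tested (grey), with the called subunits in red and the others in blue. Grin2d (-0.68) and Grin3a (-0.35) lie below 0, and the other 4 subunits lie between 0.11 and 0.27.

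Markers of other cell populations moved between the libraries alongside these differences. Of 6 interneuron markers, 0 were called higher and 3 lower in replicate 2, with a summed level of 740 and 569 CPM. Sst had 249 and 111 CPM, Gad2 156 and 122, and Dlx1 44.5 and 31.0. The others were not called and did not move 1 way: Gad1 had 244 and 253 CPM, Lhx6 18.7 and 32.3, and Dlx2 27.9 and 19.6. The 6 markers of forebrain excitatory neurons had 4 called lower and 0 higher, with 830 and 699 CPM. The 7 general neuronal markers had 6 lower and 0 higher, with 4517 and 2985 CPM. Most of that fall was in Tubb3 (1422 and 782 CPM), Stmn2 (897 and 556) and Gap43 (663 and 343). Snap25 had 482 and 358 CPM, Nefl 344 and 252, and Syt1 539 and 512. Rbfox3, which was not called, had 172 and 181. Hindbrain and spinal markers went the other way, with 3 of 5 tested called higher and a summed level of 28.4 and 77.2 CPM. In the cerebellar granule lineage 1 of 5 tested was called higher, with 396 and 487 CPM. Among all genes with a mean count above 100 and up to 200, 9.76% were called lower in replicate 2. It was 21.6% above 200 and up to 500, 32.0% up to 1000 and 53.3% up to 3000. The median log2 ratio was -0.58 for the neuronal list, -0.55 for interneurons and -0.38 for forebrain excitatory neurons, against 0.01 over all genes tested. It was 0.43 for the cerebellar granule lineage and 1.63 for hindbrain and spinal markers. Among all genes with mean counts above 1000 and up to 3000, the median was -0.19. Whether the lists differed from genes of like count was not tested. The part of these shifts in the Grin2d, Grin3a and Grin1 differences was not tested.

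Of the genes that supply the receptor's ligands, Slc1a3 and Glul, an astrocytic glutamate transporter and glutamine synthetase, had the highest levels. Slc1a3 had a level of 336 per coding kilobase in both libraries, and Glul one of 278 ± 19.9 (SD, n = 2). Over all genes tested, 5.95% were called higher and 11.5% lower. Of the 14 ligand supply genes tested, 1 was called higher in replicate 2 and 3 lower. Their median log2 ratio was -0.03 against 0.01 over all genes tested. Srr, which makes the co-agonist D-serine, was the 1 called higher, with 99 and 445 footprints and a log2 ratio of 0.54. Slc17a6, the vesicular glutamate transporter VGLUT2, had the lowest log2 ratio, -0.49, with 377 and 826 footprints. Dao, which degrades D-serine, had 1 and 3 footprints.

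The share called over all genes tested was 17.4%, and it was 32.1% at mean counts above 200 and up to 500. Of the 20 scaffold genes, all tested, 5 were called higher and 3 lower in replicate 2, with a median log2 ratio of -0.03. Lin7c, part of the complex that carries receptors to synapses, and Dlg4, which encodes PSD-95, had the highest levels, 278 ± 15.6 and 104 ± 1.74 per coding kilobase. Apba1 had the lowest log2 ratio, -0.65, with 545 and 1068 footprints, and Homer3 the highest, 0.89, with 20 and 116. Dlg3, which encodes SAP102 and is known as the partner of early receptors, was named outside the naming rule for that role. It stood at 0.725 (0.628 to 0.836) and 0.717 (0.660 to 0.780) of the Dlg4 level, so the scaffold of mature synapses was the higher of the pair.

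Against 17.4% called over all genes tested, and 32.1% at mean counts above 200 and up to 500, the signalling list had 20 genes. Of these, 4 were called higher and 3 lower, with a median log2 ratio of 0.07. Camk2b, a subunit of the kinase that binds GluN2B, had the highest level, 416 ± 39.03, followed by Cdk5r1 at 330 ± 81.3, which also had the lowest log2 ratio, -0.63. Camk2d had the highest, 0.57, with 327 and 1499 footprints. Camk2b exceeded Camk2a by 1.83-fold (1.66 to 2.02) in replicate 1 and 2.03-fold (1.92 to 2.14) in replicate 2. Camk2a was named outside the rule because it is the isoform that comes to dominate in the mature forebrain.

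Of 8 auxiliary and trafficking genes, 1 was called higher and 2 lower, where 17.4% of all genes tested were called. Ap2m1, the clathrin adaptor subunit that takes receptors into the cell, had a level of 423 ± 10.003 and Ephb2 of 41.1 ± 3.48. Ap2m1 was one of the genes called lower, at a log2 ratio of -0.17 (exact binomial test, adjusted p = 0.0080), but the call did not hold. With library totals it was not called (exact binomial test, adjusted p = 0.597), and with the trend over footprint density removed it was called higher, at 0.17 (exact binomial test, adjusted p = 0.00898). Neto1, an auxiliary protein of the receptor, had the lowest log2 ratio of this list, -0.65, with 144 and 282 footprints. Kif17, the motor known to carry GluN2B vesicles, had 8 and 50 footprints and was not called, at a log2 ratio of 0.95. Of the 11 other ionotropic glutamate receptor genes, 2 were called higher, Gria2 (log2 ratio 0.42) and Gria3 (0.49), and 1 lower, Grik5 (-0.60). The share called over all genes tested was again 17.4%. The median log2 ratio of these 11 genes was 0.18, and that of the 6 tested NMDA genes was 0.13.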

How the data were processed

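The authors deposited 1 table of raw counts of ribosome-protected fragments per Ensembl transcript, with annotated lengths and 1 column for each replicate. Per the submitters' processing notes, Trimmomatic 0.36, Bowtie2 2.2.6, SAMtools and build GRCm38 p4 were used. The counter, strand and treatment of fragments that match several transcripts are not given in the sources used here. Per the labels' protocols, polysomal fractions were digested with RNase I and short fragments were gel-selected.

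Symbols are transcript names without their trailing number. Counts were summed over a gene's transcripts. Chromosomes come from a RefSeq table that held 7 of the 7 symbols. The exact binomial test (SciPy 1.17.1) used TMM effective library sizes from edgeR 4.0.16 and Benjamini-Hochberg adjustment over genes averaging 10 or more counts. With 1 group there is no contrast for a quasi-likelihood test. Counts over 16452 genes were also simulated with Poisson noise alone. The binomial test called 69.5% of genes changed by 1 on the log2 scale, 93.3% of those changed by 2 and 0.0246% of unchanged genes. The simulation held no variation between animals, so it does not give the error rate of the test on these libraries. DESeq2 1.42.0 size factors were an alternative.

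Members and lists were chosen with earlier results of these data known. Named genes were the 7 subunits and, per list, the 2 with the highest level and those with the highest and lowest log2 ratio. Matched RNA was not analysed here, so levels are not translational efficiencies. One of the genes most like Grin2b in level is not reported here.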

Additional observations from a re-analysis of the deposited data

How the results depend on the processing

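The mean Grin2b to Grin2a ratio of 8.18 was 10.8 with protein-coding transcripts, 10.2 with the highest transcript per gene and 5.03 with full transcript lengths. Without either replicate it ranged from 7.72 to 8.63. The Grin2b share of the GluN2 level, 68.6%, was 55.2% with the highest transcript and 40.1% with full lengths, and 64.9% to 72.4% without either replicate. The summed subunit level of 318 was 372, 169 and 171 under the same 3 settings, and 303 to 333 without either replicate. The cause of these moves was not tested beyond the change of counts and lengths itself.

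The number of called subunits, 3, became 1 with the highest transcript per gene (1444 genes called in all, against 2861) and 0 with edgeR's exact test (11 genes). The dispersion in that edgeR test took in the differences under test, and with them the spread between replicates that the binomial test leaves out. Grin2d remained called in 7 of 8 alternatives and Grin3a in 5. Grin1 remained called in 4, and its adjusted p without the filter was 0.0689 (exact binomial test). Grin2b was also called with library totals (exact binomial test, adjusted p = 0.0123). Signs turned for Dlg4 with library totals (0.0342) and for Dlg4 (0.0711), Ap2m1 (0.17) and Slc1a3 (0.14) with the density trend removed, where Ap2m1 and Slc1a3 were called higher. With the highest transcript they turned for Ephb2 (-0.00816) and Gria1 (-8.24e-05).

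No paired analysis was possible because both samples belong to 1 group. Leaving out a replicate ends the replicate comparison, so no such value is given. Depth limits Grin2c and Grin3b, whose counts do not exceed 18.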
